A study of Rattus norvegicus with 4 samples.

Results

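The Notch receptors Notch1, Notch2 and Notch3, the ligand Jag1 and the transcriptional repressors Hes1, Hey1, Hey2 and Heyl were followed in cultured rat heart muscle cells given a microRNA mimic. These 8 genes were taken by symbol from a table of 15731 genes, and all 8 are listed, each under its symbol once. The table gives the level of each gene in 4 libraries as RPKM, reads per kilobase of gene scaled to the size of the library. The cells were ventricular cardiomyocytes of wild type Wistar rats at postnatal day 1, dissociated from hearts, passed through a preplating step that leaves mostly cardiomyocytes in suspension, and plated. They were transfected 24 h later with Lipofectamine RNAiMAX and harvested 72 h after transfection. The 3 treated groups received the mimic hsa-miR-106b-5p (here miR-106b), the mimic hsa-miR-93-5p (miR-93) or the mimic hsa-miR-25-3p (miR-25). The control group received the worm microRNA cel-miR-67. The treatment notes give 25 nM of mimic and the extraction notes 25 mM, so the dose is given differently in each, and the treatment notes name day 0 rats in place of day 1. Each group is 1 library, so no difference has a replicate check, no p-value is given, and every interval is a 95% exact (Clopper-Pearson) interval from read numbers that covers counting error only and compares libraries, not conditions.

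Notch signalling passes between touching cells. A ligand such as Jag1 on the first cell pulls on a Notch receptor on its neighbour, proteases cut the receptor, and the freed intracellular part enters the nucleus, binds the DNA-binding protein Rbpj and switches on repressor genes of the Hes and Hey families. In the young heart this pathway is known for its part in the growth and maturation of cardiomyocytes and in the coronary vessel wall, where Notch3 and Heyl are typical of the muscle cells and pericytes. The question put to the libraries was how the receptors, the ligand and the targets differ after each of the 3 mimics, which belong to the cluster of microRNAs that the study tested for cardiomyocyte proliferation.

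The sequences of the 3 microRNAs are shown because their seed, the stretch that pairs with messages, separates the mimics. Below are the rat mature forms from RefSeq on GRCr8, all on the minus strand of chromosome 12, at chr12:22157103-22157123 for miR-106b-5p, chr12:22156894-22156916 for miR-93-5p and chr12:22156652-22156673 for miR-25-3p. Bases 2 to 8, the seed, are in capitals.
rno-miR-106b-5p: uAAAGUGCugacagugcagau
rno-miR-93-5p: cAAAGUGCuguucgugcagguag
rno-miR-25-3p: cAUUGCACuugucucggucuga
The seeds of miR-106b and miR-93 were identical at all 7 bases, and the shared run extended to 9 bases from position 2. miR-25 carried another seed. The transfected mimics were named for the human forms, and target sites in the 8 messages were not analysed here.

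The libraries held 15175185 to 18797234 reads on listed genes. Cardiomyocyte markers (Tnnt2, Myh6, Myl2 and 7 others) were all detected in every library, with a summed RPKM of 11900 to 19900. Defining endothelial markers were low, with Cdh5 at 0.26 to 0.402 RPKM and a list sum of 18.8 to 24.3, whereas fibroblast markers (365 to 862) and mural cell markers (664 to 1970) were also found. Macrophage (15.5 to 23.7), epicardial (29.7 to 42.2) and Schwann cell (1.08 to 2.04) markers summed to less. In such bulk RNA, fewer cells of a type and less RNA per cell cannot be told apart.

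Among the receptors, Notch2 (ENSRNOG00000018835) had the highest level in every library. Its RPKM was 5.57 after cel-miR-67, 5.19 after miR-106b, 4.74 after miR-93 and 5.66 after miR-25. The values lay within a factor of 1.19 of each other, and only the step from miR-106b down to miR-93 had an interval clear of 0 among neighbours in that order. Notch3 (ENSRNOG00000004346), the receptor typical of vascular muscle, stood at 2.15 RPKM after cel-miR-67, 2.50 after miR-106b, 2.76 after miR-93 and 2.12 after miR-25. It was therefore highest after the mimics that share a seed and nearly equal in the libraries of miR-25 and the control. Notch1 (ENSRNOG00000019322) was listed below 1.0 RPKM in all 4 libraries, at 0.352 after cel-miR-67, 0.374 after miR-106b, 0.404 after miR-93 and 0.616 after miR-25. Those values rested on 76 to 160 reads, and the miR-25 library stood above the other 3, which did not separate beyond counting error.

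Jag1 (ENSRNOG00000007443), a membrane-bound ligand of the Notch receptors, was the second most abundant of the 8 genes in each library. Its RPKM was 10.9 after cel-miR-67, 12.9 after miR-106b, 19.4 after miR-93 and 9.30 after miR-25, from 1376, 2134, 2951 and 1413 reads. The miR-93 library was the highest and the miR-25 library the lowest, and each step in the order miR-93, miR-106b, cel-miR-67, miR-25 had an interval clear of 0.

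Hes1 (ENSRNOG00000001720), a repressor that Notch induces in many tissues, was the most abundant member throughout. Its RPKM was 16.9 after cel-miR-67, 20.9 after miR-106b, 21.0 after miR-93 and 27.3 after miR-25, from 553, 897, 827 and 1074 reads. All 3 mimic libraries stood above the control, those of miR-106b and miR-93 were nearly equal, and miR-25 was the highest. Within the control library 79.8% of listed genes had a lower RPKM than Hes1, against 70.3% for Jag1, 54.5% for Notch2 and 17.1% for Notch1.

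Of the Hey repressors, Hey2 (ENSRNOG00000013364), which acts in ventricular muscle, had 3.63 RPKM after cel-miR-67, 3.09 after miR-106b, 3.26 after miR-93 and 3.80 after miR-25. No neighbouring pair in the order of Hey2 levels differed beyond counting error. Heyl (ENSRNOG00000015318), known from vascular muscle, had 2.09 RPKM after cel-miR-67, 2.53 after miR-106b, 2.96 after miR-93 and 0.953 after miR-25. The miR-25 value, from 121 reads, was the lowest and the only value of Heyl below 1.0 RPKM. Hey1 (ENSRNOG00000011593) was barely detected, with 2 reads after miR-106b, 1 after miR-93, 3 after miR-25 and 0 after cel-miR-67. A count of 0 allows up to 3 reads, which is 0.141 RPKM for Hey1 in the control library, and the mimic values of 0.039 to 0.117 RPKM lie under that limit. No fold is given for Hey1, and no difference was detectable at this depth.

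**Figure D1:**
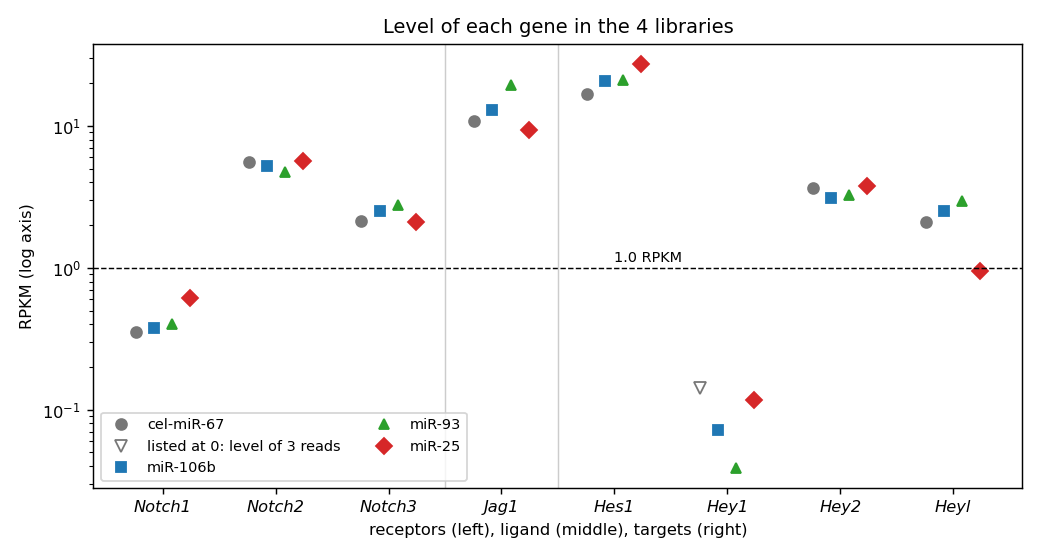
RPKM (log axis) of each of the 8 genes in the 4 libraries, 1 point a library, with the 1.0 RPKM cutoff dashed and the open triangle marking the level of 3 reads where Hey1 is listed at 0. Hes1 and Jag1 sit highest, Notch1 and Hey1 lie under the cutoff in all libraries, and Heyl crosses it after miR-25 at 0.953 RPKM.

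The comparison with cel-miR-67 used a cutoff of 1.3-fold among genes above 1.0 RPKM in both libraries. After miR-106b, 6 of the 8 genes could be counted, and 0 passed the cutoff in either direction, where 11.9% of 11296 genes were higher and 12.7% lower. Hes1 came closest, 1.24-fold higher (log2 ratio 0.31, 95% interval 0.15 to 0.46). Heyl (0.28, 0.03 to 0.53), Jag1 (0.24, 0.14 to 0.34) and Notch3 (0.21, 0.02 to 0.41) also had intervals above 0. These 4 genes were higher than the control beyond counting error, each by less than 1.3-fold. Of all genes counted, 16.1% had a higher ratio than Hes1, 18.1% than Heyl, 20.8% than Jag1 and 23.5% than Notch3. The share of all genes with an interval above 0 was not computed. Notch2 (-0.10, -0.22 to 0.02) and Hey2 (-0.23, -0.50 to 0.04) were listed lower with intervals that include 0. The median log2 ratio of the 6 genes was 0.23, against -0.003 for all genes counted. Scaling to the reads on listed genes without the 10 deepest and the mitochondrial genes adds 0.056 to every log2 ratio of miR-106b. Of all genes past the cutoff it makes 59.7% higher in place of 48.2%. Of the 6 genes still 0 passed, where 15.1% of all genes counted were higher and 10.2% lower.

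After miR-93, 2 of 6 genes passed the cutoff, both higher, where 15.1% of 11280 genes were higher and 15.6% lower. Jag1 was 1.78-fold higher (log2 ratio 0.83, 0.74 to 0.93), a ratio exceeded by 334 genes or 2.96% of those counted. Heyl was 1.41-fold higher (0.50, 0.25 to 0.74), a ratio exceeded by 9.69% of genes. The ligand thus differed most, and of the targets Heyl alone passed. Notch3 (0.36, 0.16 to 0.55) and Hes1 (0.31, 0.15 to 0.47) lay just inside the cutoff, which is 0.38 on this scale. The same other scaling adds 0.116 to every log2 ratio of miR-93, so that 4 of the 6 genes passed higher, beside 22.7% of all genes. Of all genes past the cutoff it makes 68.0% higher in place of 49.2%. Notch2 was lower by less than the cutoff (-0.23, -0.36 to -0.10), and the interval of Hey2 spanned 0 (-0.16, -0.43 to 0.12). The median of the 6 genes was 0.33, against -0.002 for all genes counted. In this library 0 of 8 counted mural markers were past 1.3-fold higher and 3 lower, with a list sum of 664 RPKM against 822 in the control. The highest single marker gives 388 and 478 RPKM of these sums. Within that list Pdgfrb (0.35, 0.27 to 0.44) and Notch3 lay just inside the cutoff on the higher side. The part of these markers in the Heyl value was not tested.

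After miR-25, 5 genes could be counted, of which 1 was higher and 0 lower, where 19.3% of 11198 genes were higher and 22.6% lower. The gene that passed was Hes1, 1.62-fold higher (log2 ratio 0.69, 0.54 to 0.84), a ratio exceeded by 7.73% of genes. Jag1 was listed lower by less than the cutoff (-0.23, -0.34 to -0.12), while Notch2 (0.02, -0.10 to 0.14), Notch3 (-0.02, -0.23 to 0.18) and Hey2 (0.07, -0.19 to 0.33) had intervals on both sides of 0. Heyl could not be counted because its miR-25 value is under 1.0 RPKM, although it was 2.20-fold lower (-1.13, -1.47 to -0.81). Notch1, likewise under the cutoff, was 1.75-fold higher (0.81, 0.41 to 1.22). The median of the 5 counted genes was 0.02, against -0.012 for all. The other scaling adds 0.096, leaves Hes1 as the gene that passed, and makes 58.9% in place of 46.1% of all genes past the cutoff higher. Under it 25.6% of all genes counted were higher and 17.9% lower.

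The miR-25 library also differed in its cell type markers. There 5 of 9 counted mural markers were past 1.3-fold higher and 2 lower, and the mural list summed to 1970 RPKM against 664 to 822 in the other 3 libraries. The highest single marker gives 1310 RPKM of the miR-25 sum and 478 of 822 RPKM in the control. Acta2, a smooth muscle actin, stood at 440 RPKM against 164 in the control, while Notch3, itself in that list, was at 2.12 against 2.15. Cspg4, of the same list, was lower, at 8.65 RPKM against 15.2 (-0.82, -0.90 to -0.73). Of 10 cardiomyocyte markers 9 were lower and 1 higher after miR-25, and of 10 fibroblast markers 7 were lower and 1 higher. These markers differed in the other mimic libraries too. After miR-106b 3 cardiomyocyte markers were lower and 1 higher, and 5 fibroblast markers were lower and 0 higher. After miR-93 4 cardiomyocyte markers were lower and 2 higher, and 4 fibroblast markers were lower and 0 higher. No gene of these lists was at 0. The part of these markers in the values of Heyl and Hes1 was not tested.

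**Figure D2:**
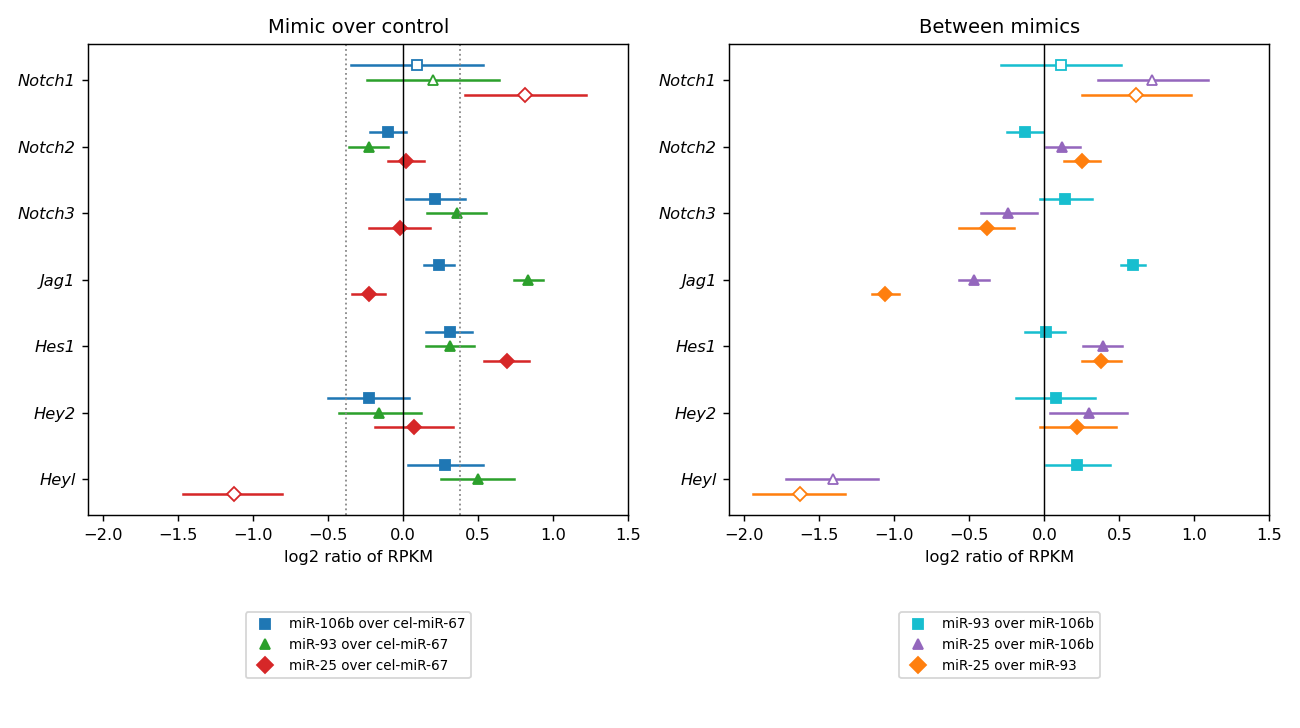
Log2 ratio of RPKM (x axis) for 7 genes, mimic over cel-miR-67 on the left with the 1.3-fold cutoff dotted, and mimic over mimic on the right; points are ratios, bars are 95% exact intervals from reads, and open symbols are genes under 1.0 RPKM in 1 or both libraries. Jag1 after miR-93 at 0.83 and Heyl after miR-25 at -1.13 stand farthest from 0 on the left.

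Ratios between mimics do not use the control library. Jag1 was 1.51-fold higher after miR-93 than after miR-106b (log2 ratio 0.59, 0.51 to 0.67), the mimics that share the seed shown above. It was 2.08-fold lower after miR-25 than after miR-93 (-1.06, -1.15 to -0.97) and 1.38-fold lower than after miR-106b (-0.47, -0.57 to -0.37). Jag1 thus differed beyond counting error between each pair of mimic libraries.

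Hes1 did not separate miR-93 from miR-106b, with a log2 ratio of 0.01 and an interval of -0.13 to 0.14. In the miR-25 library it was higher than after miR-106b (0.39, 0.26 to 0.52) and than after miR-93 (0.38, 0.25 to 0.51). Heyl ran the other way, lower after miR-25 than after miR-106b by 2.66-fold (-1.41, -1.72 to -1.11) and than after miR-93 by 3.10-fold (-1.63, -1.94 to -1.33). Between miR-93 and miR-106b its ratio was 0.22 (0.01 to 0.44). Of the 3 mimic libraries, that of miR-25 thus had the highest Hes1 and the lowest Heyl.

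Notch3 was lower after miR-25 than after miR-93 (-0.38, -0.57 to -0.20) and than after miR-106b (-0.24, -0.42 to -0.05). Notch1 was higher after miR-25 than after miR-106b (0.72, 0.36 to 1.09) and than after miR-93 (0.61, 0.25 to 0.98), on levels below 1.0 RPKM. The low receptor Notch1 and the middle receptor Notch3 thus took opposite places after miR-25. Notch2 was higher after miR-25 than after miR-93 (0.25, 0.13 to 0.37), by less than 1.3-fold. Hey2 differed beyond counting error only between miR-25 and miR-106b (0.30, 0.04 to 0.55).

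**Figure D3:**
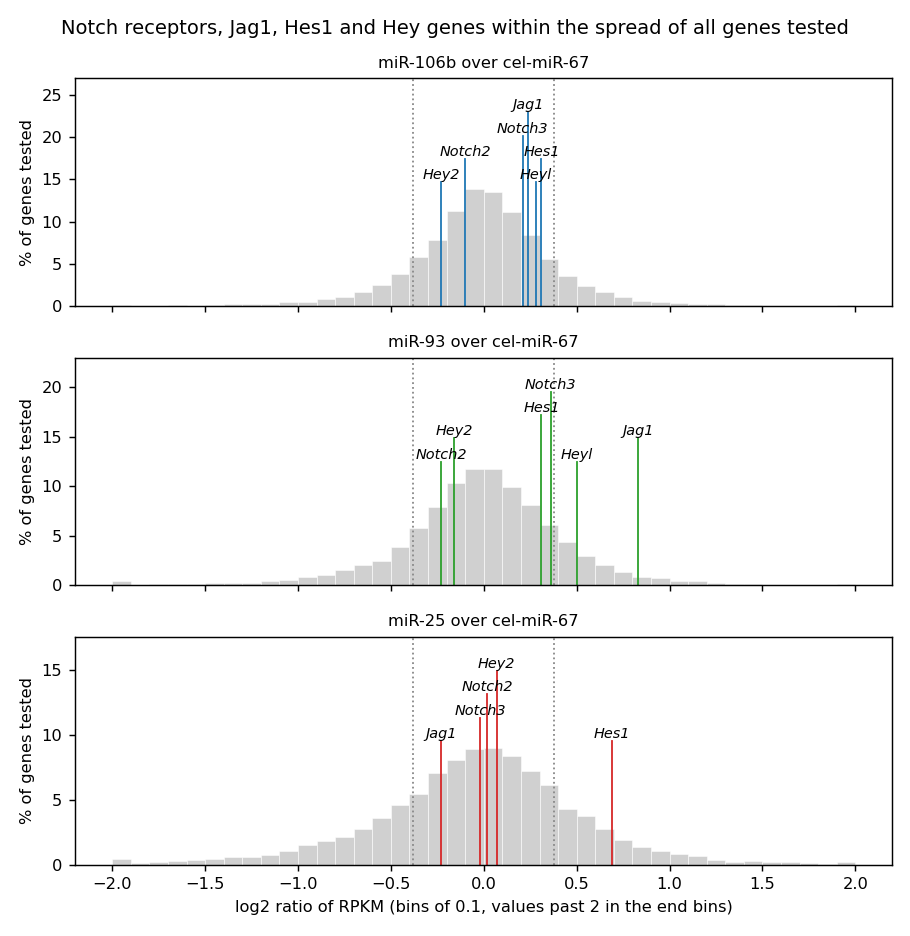
Percent of all genes counted (y axis) by log2 ratio of RPKM over cel-miR-67 in bins of 0.1 (x axis), 1 panel a mimic, with coloured lines at the genes described and dotted lines at 1.3-fold. Jag1 after miR-93 (0.83) lies in the upper tail, whereas most lines fall inside the dotted lines.

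Summed by family, the receptor message lay in a narrow range, at 8.26 RPKM after cel-miR-67, 8.27 after miR-106b, 8.10 after miR-93 and 8.61 after miR-25, Notch4 included. Notch2 made up 58.5% to 67.4% of that sum and Notch3 24.6% to 34.0%, with the lowest Notch2 share and the highest Notch3 share after miR-93. Jag1 and Jag2 together came to 11.4 RPKM after cel-miR-67, 14.9 after miR-106b, 22.1 after miR-93 and 10.5 after miR-25. The Hey family sum ranged from 4.87 RPKM after miR-25 to 6.25 after miR-93. Heyl made up 36.6% of that sum after cel-miR-67, 44.5% after miR-106b, 47.3% after miR-93 and 19.6% after miR-25.

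Jag2, the other Jagged ligand, was chosen for description after its values were seen. It stood at 0.535 RPKM after cel-miR-67, 2.04 after miR-106b, 2.75 after miR-93 and 1.19 after miR-25, from 55, 275, 340 and 147 reads. All 3 mimic libraries were above the control, by 3.81-fold after miR-106b (log2 ratio 1.93, 1.51 to 2.38), 5.13-fold after miR-93 (2.36, 1.94 to 2.80) and 2.22-fold after miR-25 (1.15, 0.70 to 1.63). Jag2 is not in the counts because its control value is under 1.0 RPKM. Its share of the Jag1 and Jag2 sum was 4.69% after cel-miR-67 and 11.3% to 13.7% with the mimics.

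**Figure D4:**
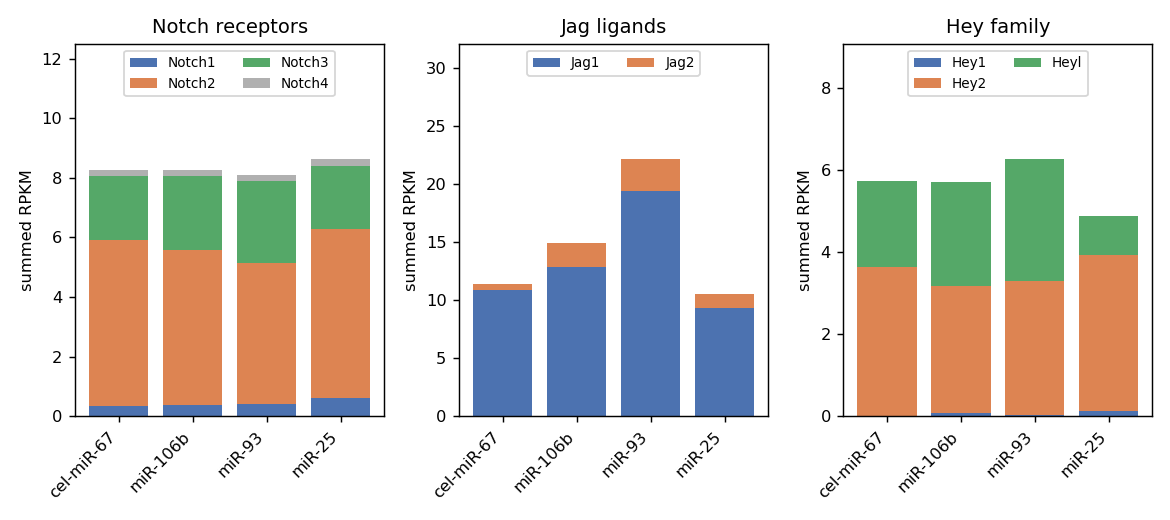
Summed RPKM (y axis, from 0) of the Notch receptors, the Jag ligands and the Hey family in each of the 4 libraries, each bar stacked by gene. The receptor bars are of like height (8.10 to 8.61), the Jag bar is tallest after miR-93 at 22.1, and the Heyl block is smallest after miR-25.

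Promoter windows from RefSeq (GRCr8, 250 bases before the gene start and 50 after) were found for 7 of the 8 genes, all but Hey1. They were searched on both strands for TGGGAA, the core letters that Rbpj binds, and for GTGGGAA, which contains it. TGGGAA was in 3 of the 7 windows (Notch3, Hey2 and Hes1) and in 25.7% of 33469 promoter windows. GTGGGAA was in 2 (Hey2 and Hes1) and in 6.29% of all windows. Hes1 and Hey2 held TGGGAA at 2 places each, as did 3.85% of all windows with 2 or more. The Hes1 stretch is shown because Hes1 is the most abundant target and holds both motifs. It lies at chr11:84213144-84213173 on the minus strand, 128 to 99 bases before the start, with the matches in capitals.
Hes1: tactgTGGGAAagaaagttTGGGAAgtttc
The 2 matches lie on the same strand, starting 123 and 109 bases before the start. A match of letters is a description, and binding was not measured.

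The other genes of the pathway were taken from a list of 58, of which 49 are listed once and 35 could be counted in each comparison. After miR-106b 3 were higher and 4 lower (median log2 ratio -0.05), after miR-93 3 and 4 (0.03), and after miR-25 6 and 6 (0.09). Each of these is a smaller share of the 35 than among all genes counted, where 11.9% were higher and 12.7% lower after miR-106b, 15.1% and 15.6% after miR-93, and 19.3% and 22.6% after miR-25. The other scaling gives 3 and 2, 7 and 4, and 9 and 6. As shares these are 8.57% and 5.71% after miR-106b, against 15.1% and 10.2% of all genes counted. After miR-93 they are 20.0% and 11.4% against 22.7% and 10.7%, and after miR-25 25.7% and 17.1% against 25.6% and 17.9%. Under that scaling the shares lower after miR-93 and higher after miR-25 are thus not smaller than among all genes counted. Among the 35 counted pathway genes the receptor proteases held the largest ratio in each comparison. Adam10, which makes the first cut of a ligand-bound receptor, had 32.1 RPKM after cel-miR-67, 24.3 after miR-106b, 30.2 after miR-93 and 7.99 after miR-25. It was thus 4.02-fold lower after miR-25 (-2.01, -2.12 to -1.89), lower after miR-106b by a margin near the cutoff (-0.40, -0.48 to -0.33) and within the cutoff after miR-93.

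Psen2, a catalytic subunit of the gamma-secretase that makes the next cut, had 18.1 RPKM after cel-miR-67, 36.5 after miR-106b, 41.3 after miR-93 and 32.6 after miR-25. It was past the cutoff with all 3 mimics, by 1.80-fold to 2.28-fold. Ncstn, Aph1a and Psenen, subunits of the same enzyme, stayed within 1.3-fold in each comparison. Furin, which cuts the receptor on its way to the membrane, was lower after miR-93 (-0.75, -0.83 to -0.67), lower by a margin near the cutoff after miR-106b (-0.40, -0.48 to -0.33), and at 0.31 (0.24 to 0.38) after miR-25. Under the other scaling neither Adam10 nor Furin passes after miR-106b.

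In the nucleus, Rbpj had 16.4 RPKM after cel-miR-67, 14.4 after miR-106b, 14.7 after miR-93 and 11.2 after miR-25. Of these only the miR-25 value passed the cutoff (-0.55, -0.66 to -0.45). Kat2b, an acetyltransferase of the activating complex, was lower with all 3 mimics, at -0.58 (-0.72 to -0.44) after miR-106b, -0.56 (-0.70 to -0.42) after miR-93 and -1.17 (-1.33 to -1.01) after miR-25. Snw1, an adaptor of that complex, was lower after miR-25 (-0.55, -0.74 to -0.37). The coactivators Maml1, Maml2, Ep300 and Crebbp stayed within the cutoff with each mimic.

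Of the remaining classes, Poglut1, which adds glucose to the receptor, was higher after miR-25 (0.78, 0.68 to 0.88), as was the corepressor Tle4 by a margin near the cutoff (0.39, 0.10 to 0.67). Egfl7, a secreted protein of endothelial cells that can bind Notch, was lower after miR-106b (-0.70, -1.13 to -0.28), miR-93 (-1.14, -1.62 to -0.67) and miR-25 (-0.93, -1.39 to -0.48). Egfl7 is also 1 of the endothelial markers, whose list summed to 24.3 RPKM after cel-miR-67 and 18.8 to 20.8 with the mimics. Most of that sum is Eng, at 13.0 to 15.6 RPKM, and Kdr, of the same list, was past the cutoff on the higher side with all 3 mimics (0.45, 0.79 and 0.86). The part of that list in the Egfl7 values was not tested.

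The Deltex family members Dtx2, Dtx3 and Dtx4 passed the cutoff with 1 mimic each. Dtx3 was lower after miR-93 (-0.88, -1.08 to -0.68) and Dtx4 lower after miR-25 (-0.74, -1.24 to -0.25). Dtx2 was higher after miR-106b (0.41, 0.09 to 0.73). Of the same class, receptor turnover and inhibitors, Numbl was higher after miR-25 (0.59, 0.28 to 0.91). Nedd4 was higher after miR-93 (0.43, 0.41 to 0.45) and miR-25 (0.42, 0.40 to 0.44). In that class of 9 counted genes, which includes Egfl7, 1 was higher and 1 lower after miR-106b. After miR-93 these numbers were 1 and 2, and after miR-25 2 and 2. Inside the cutoff, Dtx3 was at -0.28 (-0.45 to -0.11) after miR-106b and at 0.22 (0.06 to 0.38) after miR-25. Hes6, a family member that counteracts Hes1, was higher after miR-106b (0.49, 0.19 to 0.79), miR-93 (0.94, 0.66 to 1.24) and miR-25 (0.96, 0.68 to 1.26). Neurl1b, a ubiquitin ligase that acts on ligands, was chosen after its values were seen and is not in the counts because its control value is under the cutoff. It stood at 0.538 RPKM after cel-miR-67, 2.56 after miR-106b, 2.03 after miR-93 and 0.224 after miR-25, so it was highest in the libraries of the 2 mimics that share a seed.

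**Figure D5:**
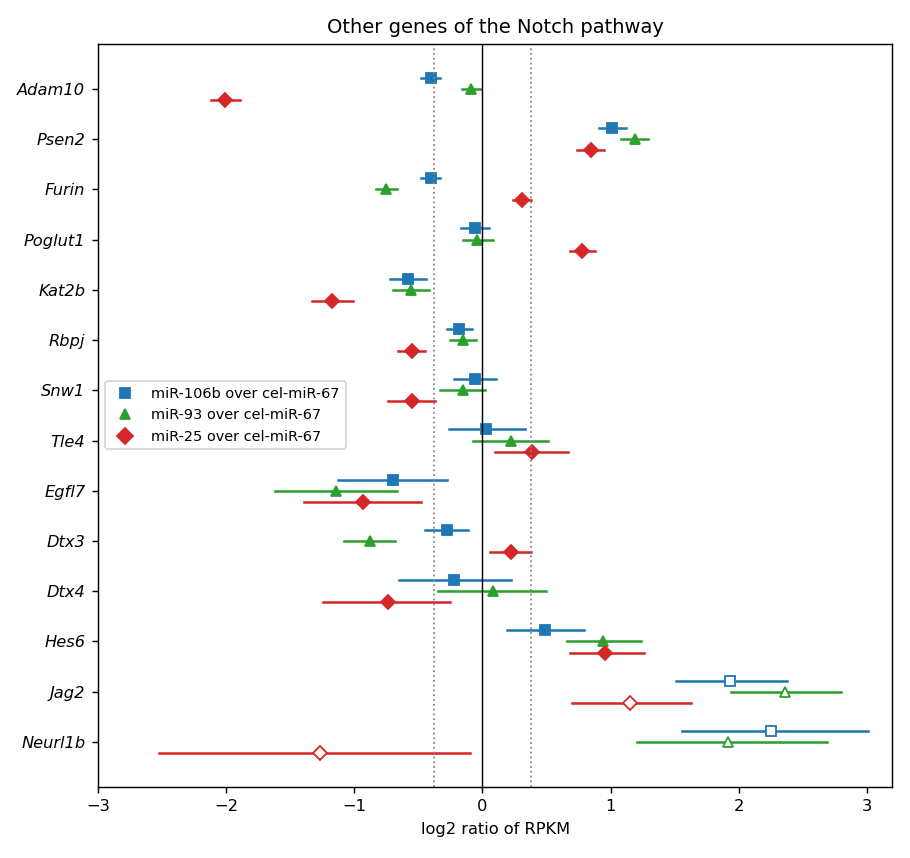
Log2 ratio of RPKM over cel-miR-67 (x axis) for 14 other Notch pathway genes with 95% exact intervals, 1 symbol a mimic, the 1.3-fold cutoff dotted and open symbols for genes under 1.0 RPKM in 1 or both libraries. Adam10 after miR-25 (-2.01) and Jag2 after miR-93 (2.36) lie far from 0 on opposite sides.

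Genes whose 3 log2 ratios over cel-miR-67 were most like those of Jag1 or Hes1 were found among 10700 genes above 1.0 RPKM in all 4 libraries. For Jag1 these were Txlnb, AC123471.1 and RGD1310951, at Euclidean distances of 0.127, 0.135 and 0.153 on the log2 scale. For Hes1 they were Phf8, Net1 and Gprasp2, at 0.0296, 0.0374 and 0.0401. The 3 ratios share 1 control library, so the likeness is a description over 4 libraries.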

How the data were processed

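As the methods and the submitters' processing notes state, the authors removed adaptors, aligned reads to Rnor_6.0 with STAR 2.7 and computed RPKM values from rounded counts with edgeR's rpkm function. The program that counted reads on genes, and whether it used strand, is not given in the sources used here. The deposited RPKM values of the 4 libraries were read as they are, and the table of the whole series equals the 4 files given by sample. No column was left unmapped.

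Whole reads were recovered from the RPKM values of all 15731 genes: library-size ratios from the most common ratio, then the smallest whole numbers that give whole lengths, with a common factor multiplied back for 654 genes. A factor shared with the length would be missed, which would understate reads and widen intervals. Tested on simulated data for the same 4 libraries, reads came back exactly for 96.3% of 15714 genes, and intervals held the true ratio for 95.4% to 95.7% of genes. The simulated reads had counting error only, and most genes had no change. Coverage near 95% therefore follows from the method, and variation between cultures was not tested. Reads on listed genes were 60.4% to 66.9% of the library sizes so found.

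Ratios are of RPKM without a pseudocount, by library and not by condition. A gene was counted above 1.0 RPKM in both libraries and past 1.3-fold, the cutoffs of the study's results. Its methods call a gene expressed above 2.0 RPKM in both libraries, which was run as an alternative. Members were named in full. In each class of other Notch genes, at most 3 genes past the cutoff with an interval clear of 0 were named, by size of change. The class of receptor turnover and inhibitors had 6 such genes, and there all 6 were named. For members past the cutoff and above 1.0 RPKM in all libraries, the 3 genes of most like pattern were named. The members and lists were chosen with earlier results of these data known. Alternatives were the pseudocount, the cutoffs and the scaling. The versions were scipy 1.17.1, numpy 2.4.6, matplotlib 3.10.9, pandas 2.3.3 and Python 3.11.15.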

Additional observations from a re-analysis of the deposited data

How the results depend on the processing

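No paired analysis was possible because each group is 1 library, and for the same reason no library could be left out. Of 84 recomputed counts 73 stayed within 1.5 times the reported value, several of them a 0 that stayed 0. Of 100 recomputed ratios of counted genes 99 stayed within their interval. Small moves were built into these settings. The medians used for centring lie between -0.012 and 0.003, and the other scaling adds 0.056 to 0.116. A pseudocount cannot turn a ratio around, so no ratio past the cutoff could change sign here. Notch3 after miR-25, whose interval includes 0, went from -0.02 to 0.072 with the scaling to reads without the 10 deepest and the mitochondrial genes. With miR-93, the number of the 8 genes counted higher was 1 at 1.5-fold, 0 at 2-fold, 1 with a pseudocount of 1 RPKM and 4 with scaling to reads without the 10 deepest and the mitochondrial genes, which also put Jag1 at 0.948. With miR-25, the number higher was 2 with no filter on low values and 0 at 2-fold, and the number lower was 1 with a filter in either library or with none, which is Heyl. Among the other Notch genes with miR-106b, 1 was higher and 1 lower at 1.5-fold, and 1 was higher with a pseudocount of 1 RPKM. The share of all genes at these other cutoffs, filters and pseudocounts was not computed, so the counts there have no background beside them. Of ratios that involve a level under 1.0 RPKM, 26 of 32 stayed within their interval. The others shrank with the pseudocount of 1 RPKM, by which Heyl with miR-25 came to -0.663 and Notch1 with miR-25 to 0.258. The few reads on Hey1 limit it at any setting.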
